A study of Mus musculus with 16 samples.

Results

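Among cells from the cortex of aged THY-Tau22 mice and their wild-type (WT) littermates, 101 barcodes carried the transcripts of perivascular and border macrophages, out of 24578 barcodes with 200 to 7000 detected genes (0.411%). A member was a barcode with at least 2 transcript counts, as unique molecular identifiers (UMIs), summed over Mrc1, Pf4, F13a1, Ms4a7, Cbr2 and Lyve1. It also held no UMI of the microglial genes P2ry12, Siglech and Gpr34, and at most 1 UMI summed over 8 genes of other lineages: Aqp4 and Gja1 of astrocytes, Mag and Mog of oligodendrocytes, Cldn5 and Flt1 of endothelial cells, Syt1 of neurons and Pdgfra of oligodendrocyte precursors. These 17 genes chose the members, so their levels are a description and none of them was tested.

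The cells came from male and female mice aged 17 months, heterozygous for a human four-repeat tau transgene with disease-linked mutations or without it, on a C57Bl6/J background. The transgene is driven by the neuronal Thy1.2 promoter, so macrophages are not the cells meant to make the mutant tau. Cortex was dissociated and single cells were profiled by Drop-seq, which counts transcripts from their 3′ ends. Of 16 libraries, 14 were compared: in males 3 WT and 3 THY-Tau22, in females 3 WT and 5 THY-Tau22. The libraries labelled WT male 3 and THY-Tau22 male 4 shared 2952 of their 3000 barcodes, against 3 to 12 in any other pair, and were left out because 1 library stood under opposite genotypes. The titles of WT male 1 and THY-Tau22 female 1 carry the same animal number, but these libraries shared no more barcodes than other pairs, and no member barcode occurred in 2 of the 14 libraries. A library held 1041675 to 2237505 UMIs, and nothing in the labels says that a library pooled several animals. In the members, Xist was detected in 7 of 8 female and 0 of 6 male libraries, and Ddx3y in 0 of 8 female and 3 of 6 male libraries. The female library without an Xist UMI was THY-Tau22 female 3, whose 12 members held 7356 UMIs, while its microglia had 7.42 Xist UMIs per 10000, within the 6.29 to 8.33 of the female libraries.

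Border macrophages live outside the brain tissue proper, in the perivascular spaces around vessels, the leptomeninges, the dura and the choroid plexus. Those of the perivascular spaces and leptomeninges derive largely from embryonic precursors, as microglia do. Border macrophages take up material from blood and cerebrospinal fluid and carry scavenger receptors such as the mannose receptor. A subset presents antigen on MHC class II molecules, and in mouse the class II-low and Lyve1-positive cells are described as the counterpart of the class II-high ones.

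The members were few and shallow. A mouse gave 3 to 16 of them, with a median of 6, and a member held a median of 488 UMIs (278 to 1432) and 297 genes. Microglia, taken here as barcodes with at least 2 UMIs of P2ry12, Siglech and Gpr34, none of the 6 macrophage genes and at most 1 of other lineages, numbered 4669 and held a median of 573 UMIs. The 19808 remaining barcodes held a median of 551. Levels below are UMIs per 10000 UMIs, summed over the members of a mouse or, where named as pooled, of all 14 mice. In the members of a mouse, 1 UMI was worth 1.34 to 5.22 per 10000, and a gene with no UMI in the 101 members could still be detected in up to 2.97% of such cells at this depth, by counting error alone.

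Of 198 barcodes with at least 2 UMIs of the 6 macrophage genes, 64 also held a microglial UMI and 33 more held over 1 UMI of other lineages, and neither kind is counted here. Among members, Mrc1, which encodes the mannose receptor CD206, was detected in 88 (pooled level 57.3), and Pf4, the chemokine CXCL4, in 61 (29.1). Ms4a7, a membrane-spanning 4-domain protein, was detected in 48 (16.7) and F13a1, the A chain of coagulation factor XIII, in 47 (17.3). Cbr2, a carbonyl reductase, was detected in 20 (4.76) and Lyve1, a hyaluronan receptor, in 19 (5.29). Of the 101 members, 19 rested on 1 of these genes, 26 on 2, 23 on 3, 24 on 4, 7 on 5 and 2 on all 6.

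The level of Mrc1 was spread over the groups with no order. In WT males the 3 mice had 66.9, 34.5 and 68.4 UMIs per 10000, and the THY-Tau22 males had 71.7, 62.4 and 53.2. In WT females the level was 65.6, 21.5 and 62.3, and in THY-Tau22 females it was 28.5, 52.2, 81.6, 38.0 and 38.2. Both pairs of groups overlapped. Pf4 was detected in the members of all 14 mice at 13.9 to 47.0, Ms4a7 in 13 mice and F13a1 in 12.

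The promoters of these genes are shown because the genes choose the cells, and transcription in macrophages is known to depend on ETS family factors such as PU.1, whose sites carry the core letters GGAA. The 6 letters GGAAGT were searched on both strands in RefSeq promoter windows of 300 bases (250 before to 50 after the start) of GRCm38.p6, the assembly also called mm10, which is the build in the submitters' processing notes. They occurred in 4 of the 5 rule genes with an entry (Mrc1, Pf4, F13a1 and Ms4a7, not Cbr2) and in 26.5% of 27025 genes. Capitals mark the match, read in either direction, within the 120 bases that precede the start site (for Mrc1, the 120 bases that begin 250 bases before it). The match begins at position -10 from the start site in Pf4, -15 in Ms4a7, -35 in F13a1 and -211 in Mrc1. A match of letters is a description and not a binding site.
Mrc1 (chr2:14229164-14229283, plus strand): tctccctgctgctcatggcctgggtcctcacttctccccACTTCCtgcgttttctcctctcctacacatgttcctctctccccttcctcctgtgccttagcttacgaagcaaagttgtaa
Pf4 (chr5:90772315-90772434, plus strand): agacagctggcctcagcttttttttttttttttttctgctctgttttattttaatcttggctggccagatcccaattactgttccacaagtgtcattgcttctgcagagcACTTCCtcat
Ms4a7 (chr19:11336147-11336266, minus strand): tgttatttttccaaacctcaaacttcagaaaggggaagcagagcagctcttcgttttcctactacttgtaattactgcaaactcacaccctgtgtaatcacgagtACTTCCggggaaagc
F13a1 (chr13:37049214-37049333, minus strand): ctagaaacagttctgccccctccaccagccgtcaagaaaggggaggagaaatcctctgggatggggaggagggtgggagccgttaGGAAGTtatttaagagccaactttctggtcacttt

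Genes of border macrophages that the rule did not use were checked against the label. The list was chosen with earlier results of these data known. Of 24 such genes, all 24 had a UMI in the members, and 23 had a higher pooled level than in microglia. By mouse, 5 of the 24 were higher in the members of at least 12 of 14 mice, and 1 was lower. Lyz2 (44.1) and Dab2 (21.1) were large parts of the pooled sum of 170. Their summed level ran from 100 to 211 per 10000 over the 14 mice in the members and from 34.8 to 45.9 in microglia, with no overlap. Of 9 microglial genes outside the rule, all 9 had a lower pooled level in the members, where their sum was 15.6 to 39.6 against 115 to 185 in microglia. The members and the microglia were defined by genes that tell these cells apart, so these differences are given with no test. Over the 779 genes with a UMI in at least 10 members, 63.2% had a higher pooled level in the members, while the median over genes of the mean log2 difference per mouse, log2(level + 1), was -0.24.

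Apoe, which encodes the lipid carrier apolipoprotein E, stood furthest from microglia among the 130 genes outside the rule with a UMI in at least 30 members. It was detected in 94 of 101 members at a pooled level of 178 against 7.08 in microglia, and took 1.78% of all member UMIs. Its level over mice was 64.8 to 323 in members and 2.17 to 17.9 in microglia, and it was 25.7 in the remaining barcodes, which include astrocytes, the other known source of Apoe in brain. The mean log2 difference from microglia was 4.44.

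Lyz2, lysozyme of myeloid cells, followed the same order. It was detected in 75 members at a pooled level of 44.1, against 2.70 in microglia, and was higher in the members of all 14 mice. Dab2, an adaptor for endocytic receptors, was detected in 57 members at 21.1 against 0.183. Maf, a transcription factor of resident macrophages, was higher in all 14 mice with a smaller distance, 33.8 against 16.5.

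Stab1, stabilin 1, was at 9.16 in the members and 1.24 in microglia. Cd163, the receptor for haemoglobin bound to haptoglobin, was detected in 28 members at 8.28, and microglia held almost none. Msr1, the class A scavenger receptor, was detected in 12 members at 2.11 against 0.0221. The macrophage lectin Cd209f was detected in 18 members at 3.70. Other scavenger receptors were sparse, with Cd36 in 8 members, Colec12 in 5 and Scarb1 in none.

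**Figure D1:**
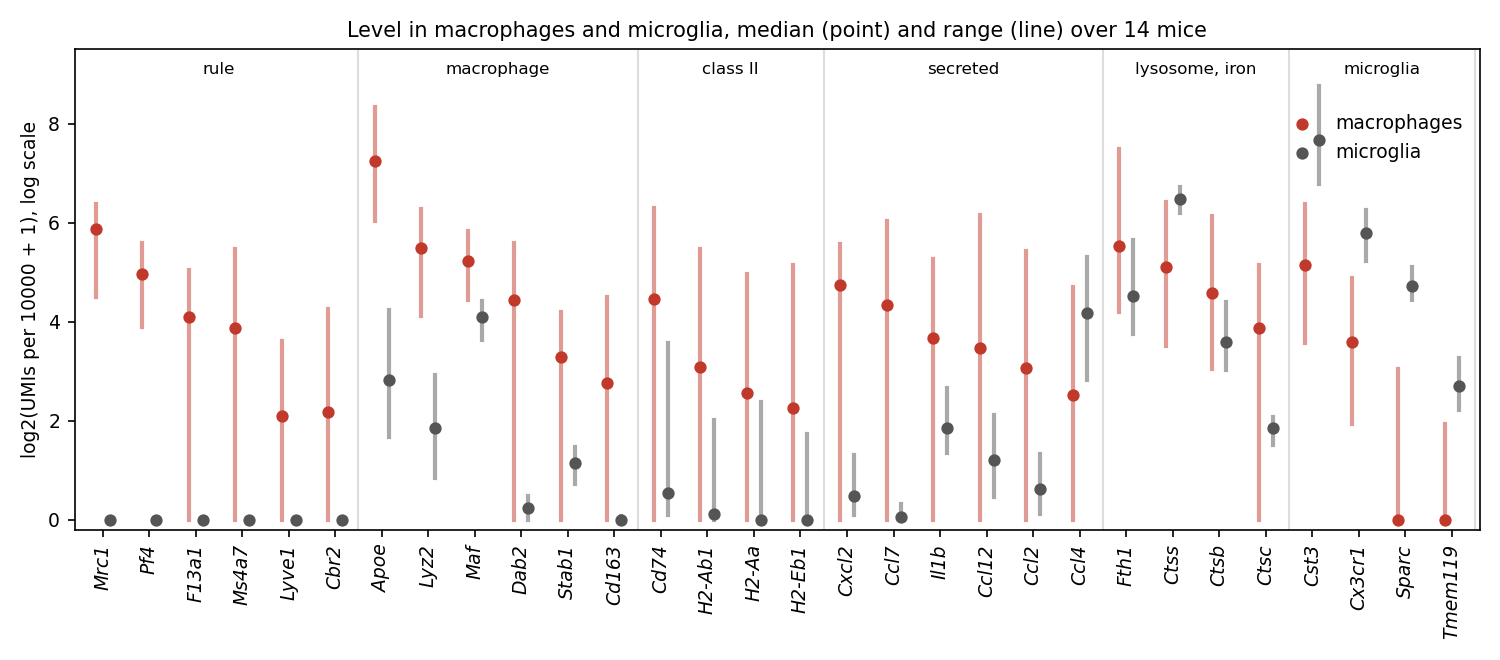
Levels of 30 genes in macrophages (red) and microglia (grey) on a log2(UMIs per 10000 + 1) axis; points are the median and lines the range over 14 mice, and the first 6 genes were used to choose the macrophages. The ranges of Apoe, Lyz2 and Maf in macrophages lie wholly above those in microglia, and that of Cst3 wholly below.

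Genes known from microglia made up the other end. Cst3, the secreted protease inhibitor cystatin C, was at 37.5 in the members and 211 in microglia, and was lower in 14 of 14 mice. Cx3cr1, the fractalkine receptor, was still detected in 38 members, at 12.0 against 57.1. Tmem119 was at 0.352 against 5.78 and Sparc at 1.06 against 25.2, while Golm1 and Olfml3 had no UMI in the members.

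The values of barcodes on either side of the rule's thresholds are given with no test. The 12 members with exactly 2 macrophage UMIs had a pooled Apoe level of 55.3, a Lyz2 level of 22.8 and a Cd74 level of 76.9, and Dab2 was detected in 3 of them. The 89 members with 3 or more had 200 for Apoe, 47.7 for Lyz2 and 15.5 for Cd74, and 54 of them had Dab2. The 59 barcodes with exactly 1 macrophage UMI that met the other parts of the rule had 86.1 for Apoe and 18.2 for Lyz2, and none had Cd163. The 29 barcodes that missed the rule by 1 microglial UMI resembled the members in these genes, with an Apoe level of 188, Dab2 detected in 20 and a Cx3cr1 level of 8.45. In the 25 with 2 or more microglial UMIs, Cst3 reached 116. The 33 barcodes with 2 or more UMIs of other lineages had a median of 1683 UMIs and an Apoe level of 36.6.

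Genes that mark other cell types were counted in the members. Neutrophil genes (0 of 5), T and NK cell genes (0 of 6) and red cell genes (0 of 4) had no UMI. Of 5 monocyte genes, Ccr2, the receptor for CCL2, was the only one detected, with 12 UMIs in 3 members, and the others, such as Ly6c2, Plac8 and Chil3, were at 0. Of 6 dendritic cell genes, Cd209a had 34 UMIs in 26 members and Zbtb46 1 UMI in 1 member, and Flt3, Xcr1, Ccr7 and Clec9a were at 0. B cell genes had 1 of 4 detected, fibroblast genes 3 of 5, mural cell genes 1 of 4, endothelial genes outside the rule 4 of 5 and neuronal genes 3 of 5. All 6 astrocyte genes and all 6 oligodendrocyte genes outside the rule were detected. The astrocyte sum was 0 to 59.2 over mice, against 6.09 to 12.9 in microglia and a median of 53.1 in the remaining barcodes. The oligodendrocyte sum was 0 to 134 over mice, against 11.0 to 37.3 in microglia and a median of 272 in the remaining barcodes.

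Secreted signals were the next group. Of 17 chemokine and cytokine genes, 16 had a UMI in the members, 10 had a higher pooled level than in microglia and 7 a lower one. Over the 779 genes with a UMI in at least 10 members, 63.2% had a higher one. By mouse, 2 of the 17 were higher in the members of at least 12 of 14 mice and 6 were lower. Their sum was higher in the members of 13 of 14 mice, at 31.3 to 233 against 16.4 to 83.7. Ccl7, Ccl2 and Ccl12 encode ligands of the monocyte receptor CCR2. Ccl7 was detected in 36 members at 21.7 against 0.0694 in microglia, Ccl12 in 34 at 16.4 against 1.49 and Ccl2 in 28 at 11.5 against 0.628. Cxcl2, a neutrophil chemoattractant, was detected in 39 members at 25.7 against 0.492, and Il1b, the inflammatory cytokine interleukin 1 beta, in 25 at 18.5 against 2.64. Ccl4 was among the lower genes, at 10.8 against 18.5 and lower in the members of all 14 mice. Il1a had no UMI in the members against 2.73 in microglia. Ccl24, an eosinophil chemoattractant known from alternatively activated macrophages, was detected in 17 members at 5.99 and Ccl8 in 11 at 5.99, and both were close to 0 in microglia. At least 1 of Ccl2, Ccl7, Ccl12 and Cxcl2 was detected in 69 members from all 14 mice, and at least 3 of them in 20 members from 10 mice.

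Wfdc17 and Ifi207 also stood apart among the widely detected genes. Wfdc17, a small secreted protein of myeloid cells, was at 11.5 against 0.0284 in microglia, and Ifi207, of the interferon-inducible p200 family, at 8.28 against 0.0568. By the mean log2 difference from microglia, and with the rule genes left out, the order of the 15 leading genes was Apoe (4.44), Ccl7 (3.73), Dab2 (3.63), Cxcl2 (3.54), Lyz2 (3.53), Wfdc17 (2.92), Ifi207 (2.53), Myo5a (2.43), Ctsc (1.91), Ccl12 (1.86), Stab1 (1.80), Neat1 (1.80), Sdc4 (1.72), Mt1 (1.71) and Cd14 (1.66). Myo5a encodes an unconventional myosin, Sdc4 a heparan sulfate proteoglycan, Mt1 a metallothionein and Cd14 the co-receptor for lipopolysaccharide.

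Degradative and antigen-handling genes split between both cell types. Of 17 lysosomal genes, all had a UMI in the members, 8 had a higher and 9 a lower pooled level than in microglia, and the sum was lower in 12 of 14 mice. Ctss, cathepsin S, was at 34.0 against 84.4 and lower in all 14 mice, and Ctsd, cathepsin D, at 7.22 against 20.6. Ctsb, cathepsin B, was at 22.7 against 11.4 and Ctsc, cathepsin C, at 15.2 against 2.58, each higher in 13 of 14 mice. The C1q transcripts, which start the classical complement cascade, were close: C1qa was at 18.7 against 22.8, C1qb at 19.4 against 26.3 and C1qc at 21.5 against 25.8. Of 10 complement genes 5 were higher and 5 lower, with Itgam, a chain of complement receptor 3, at 4.05 against 12.4.

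Of 9 iron and heme genes, 6 had a higher and 3 a lower pooled level, and the sum was higher in 14 of 14 mice, with Fth1, ferritin heavy chain, at 54.8 against 24.6. Of 11 lipid genes, 7 had a UMI in the members, with 6 higher and 5 lower than in microglia. Of 14 interferon-stimulated genes 10 were higher and 4 lower, all at low levels such as 2.64 for Ifitm3 against 0.208. Of 7 growth factor genes, 5 had a UMI, and Igf1, insulin-like growth factor 1, was detected in 15 members at 3.00 against 0.0158, whereas Pdgfb had none.

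Genes of the disease-associated microglial state, a programme known from microglia near plaques and damage, were only partly present. Of 13 such genes 8 had a UMI, with 6 higher and 6 lower than in microglia. Clec7a, the beta-glucan receptor dectin 1, was detected in 21 members at 4.58 against 0.684. Trem2 was at 2.64 against 5.73 and Tyrobp, its signalling adaptor, at 11.5 against 10.2. Cst7, Itgax, Lpl, Gpnmb and Csf1 had no UMI in the members. Immediate early genes, which respond to stimulation and also to tissue dissociation, were detected for all 15, with 7 higher and 8 lower. Jun was at 64.7 against 81.8, Fos at 43.9 against 35.1 and Atf3 at 27.3 against 31.7. Egr1 was at 21.7 against 45.0 and lower in 13 of 14 mice.

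MHC class II transcripts divided the members. The class II molecule presents peptides to CD4 T cells, its alpha and beta chains are encoded by genes such as H2-Aa, H2-Ab1 and H2-Eb1, and Cd74 encodes the invariant chain that escorts it. Cd74, named with the leading markers of these cells but not used to choose them, was detected in 20 of 101 members (19.8%, exact 95% binomial interval 12.5 to 28.9), in 2.55% of microglia and in 1.03% of remaining barcodes. Its pooled level was 24.5 against 1.35 in microglia. H2-Ab1 was at 13.0 against 0.385, H2-Aa at 7.58 against 0.423 and H2-Eb1 at 7.40 against 0.221. H2-DMa and H2-DMb1, which help load peptide, were detected in 5 and 4 members, and Ciita, the master regulator of the class II genes, and H2-DMb2 had no UMI. Class I genes were spread more evenly, with B2m at 23.8 against 25.5 and H2-D1 at 11.6 against 5.96.

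The level of Cd74 differed between mice more than between groups. In WT males it was 23.2, 50.1 and 0, and in THY-Tau22 males 28.7, 13.9 and 0. In WT females it was 18.7, 77.5 and 2.60, and in THY-Tau22 females 45.7, 0, 23.1, 0 and 62.5. Every group had a mouse at or near 0 beside others at over 13 UMIs per 10000, so that the groups overlapped.

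These transcripts came together in the same cells. Of the 101 members, 22 had a UMI of Cd74, H2-Aa, H2-Ab1 or H2-Eb1, and 15 had 2 or more such UMIs. All 10 members with H2-Eb1 also had the other 3 genes, and 13 of the 14 with H2-Aa and 13 of the 14 with H2-Ab1 had Cd74. The 5 members with most, each from another mouse, held 182 of the 298 class II UMIs (61.1%). A mouse's class II level therefore rested on 1 or few cells.

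The promoters of 3 class II genes are shown because class II transcripts occurred together, although H2-DMb1 was not among the genes for which this was counted. Class II promoters are known for a shared module whose Y box holds the CCAAT letters bound by NF-Y, so the 6 letters GATTGG were searched on both strands in the same 300-base RefSeq windows of GRCm38.p6. They occurred in 4 of the 4 class II genes with an entry (H2-Aa, H2-Eb1, H2-DMa and H2-DMb1) and in 18.2% of 27025 genes. Capitals mark the match in the 120 bases before the start site, where it begins at -49 in H2-Aa, -60 in H2-Eb1 and -62 in H2-DMb1. H2-Eb1 has a further match on the opposite strand.
H2-Aa (chr17:34287824-34287943, minus strand): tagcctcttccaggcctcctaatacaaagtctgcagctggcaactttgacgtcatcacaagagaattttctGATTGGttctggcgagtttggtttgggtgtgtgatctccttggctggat
H2-Eb1 (chr17:34305747-34305866, plus strand): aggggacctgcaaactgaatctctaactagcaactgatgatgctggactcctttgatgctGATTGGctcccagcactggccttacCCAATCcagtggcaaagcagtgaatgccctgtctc
H2-DMb1 (chr17:34153071-34153190, plus strand): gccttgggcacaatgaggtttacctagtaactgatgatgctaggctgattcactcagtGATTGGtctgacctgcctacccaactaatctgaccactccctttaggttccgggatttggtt

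The 15 members with 2 or more class II UMIs were set beside the 79 with none, as a description of cells that share libraries. Their median depth was 619 against 458 UMIs, so detection was not matched for depth. Cd163 was detected in 1 of 15 against 27 of 79, F13a1 in 3 against 41, Lyve1 in 1 against 15, Dab2 in 5 against 49 and Ccl24 in 0 against 16. In the 22 members with any class II UMI, Cd163 was detected in 1, F13a1 in 6, Lyve1 in 4, Dab2 in 8 and Ccl24 in 1. The share with Lyve1 was then close to that of the 79. Lyz2 was detected in 15 of 15 against 57 of 79, Il1b in 7 against 17 and Cxcl2 in 8 against 27. Cd209a was detected in 4 of 15 and in 21 of 79. Of the 52 members with Lyve1, Cd163, Folr2 or Cd209f, which came from all 14 mice, 8 had a class II UMI and none had H2-Eb1, and 35 members had neither set.

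**Figure D2:**
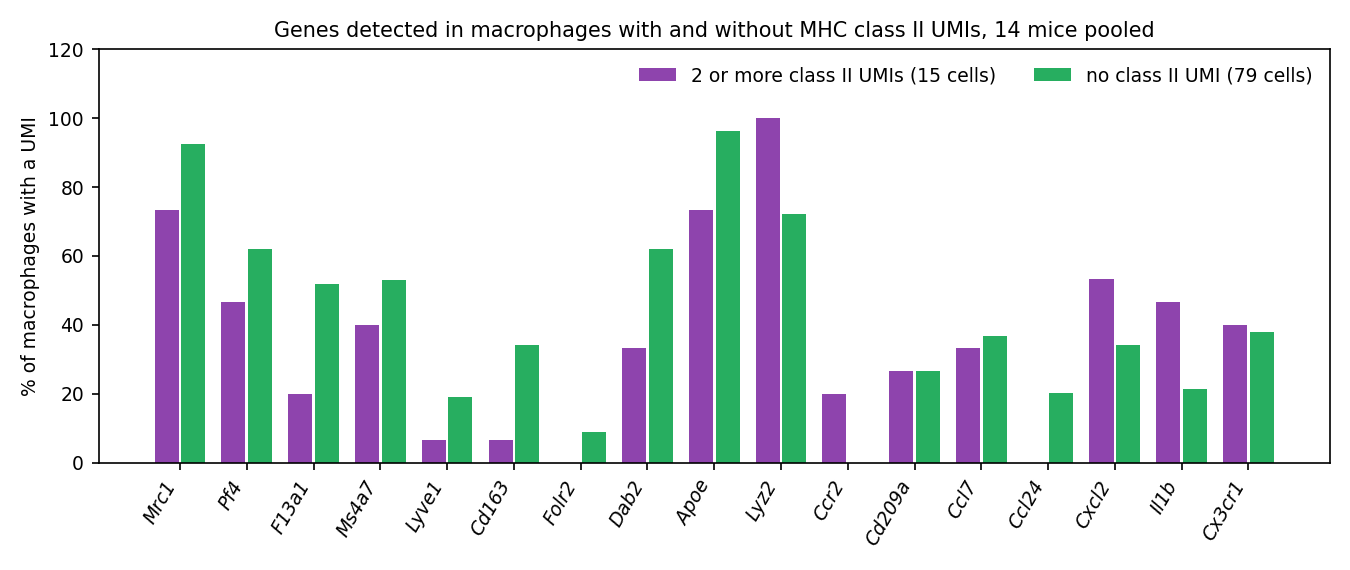
Percent of macrophages with a UMI of each gene, for 15 cells with 2 or more MHC class II UMIs (purple) and 79 cells with none (green), pooled over 14 mice; Mrc1, Pf4, F13a1, Ms4a7 and Lyve1 were used to choose the cells. Cd163, F13a1, Dab2 and Ccl24 have lower purple than green bars, and Lyz2, Ccr2, Cxcl2 and Il1b higher ones.

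The cells richest in class II went against the label in part. At least 20 class II UMIs were found in 7 members, 1 from each of 7 mice, a limit set after the values were seen. They held 21 to 43 class II UMIs, and 6 of the 7 had entered on 1 macrophage gene, against 13 of the other 94 members. Apoe was at 0 in 4 of the 7 and in 3 of the other 94. F13a1 and Cd163 were at 0 in all 7, Pf4 was detected in 1, and Mrc1 in 6 at 2 to 5 UMIs each. Lyz2 was detected in all 7. The monocyte gene Ccr2 was detected in 3 of them, with 3 to 5 UMIs each, and in 0 of the other 94. Their median depth was 756 UMIs against 468.5 for the others. The 3 cells with Ccr2 came from WT male 1, WT male 2 and THY-Tau22 male 1. These 7 cells carry few of the border macrophage genes beyond Mrc1, and are called here only by the rule that chose them.

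The share of macrophages among barcodes was compared to ask whether their number differs with the transgene. In WT males the members were 0.238%, 0.333% and 0.420% of barcodes, and in THY-Tau22 males 0.492%, 0.456% and 0.359%. The means were 0.330% ± 0.0912 and 0.436% ± 0.0687 (SD, n = 3 each), and the difference did not pass the exact two-sided permutation test (p = 0.2, adjusted p = 0.714 over 8 tests). With 3 against 3 mice this test cannot go below 0.1. In WT females the shares were 1.15%, 0.268% and 0.253%, and in THY-Tau22 females 0.459%, 0.290%, 0.592%, 0.348% and 0.281%. WT female 1, with 16 members (exact 95% binomial interval 0.656 to 1.85%, counting error only), stood above all other mice. The female means were 0.555% ± 0.511 (SD, n = 3) and 0.394% ± 0.131 (SD, n = 5), with an exact permutation p of 0.75, where 0.0357 is the smallest possible. Without WT female 1 the difference of the means turned from -0.161 to 0.134 percentage points (exact permutation p = 0.0952). A share counts barcodes that survived dissociation, so fewer cells and poorer recovery cannot be told apart.

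The rule itself moved the male result. In males every THY-Tau22 mouse lay above every WT mouse, at the smallest possible exact permutation p of 0.1, when 2 macrophage genes had to be detected (0.238% against 0.415%), when up to 1 microglial UMI was allowed (0.386% against 0.653%) and when the rule was applied after thinning each barcode to 300 UMIs (0.330% against 0.478%). With no UMI of other lineages allowed, the male shares were 0.317% and 0.340%, a difference of 0.0234 percentage points (exact permutation p = 0.9). As a share of members and microglia together, the macrophages were 1.69% ± 0.598 in WT and 2.43% ± 0.416 in THY-Tau22 males (exact permutation p = 0.2), and 3.20% ± 3.23 and 2.00% ± 0.479 in females (exact permutation p = 0.714). The median UMIs per member, a measure of depth, were 499 ± 85.4 and 580.5 ± 151 in males (exact permutation p = 0.6), and 597 ± 173 and 486 ± 68.7 in females (exact permutation p = 0.321).

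The share of macrophages with a class II UMI was compared at 300 UMIs a cell, which left out 6 shallower members. In WT males it was 33.3%, 16.7% and 0%, and in THY-Tau22 males 32.5%, 22.0% and 0%, with means of 16.7% ± 16.7 and 18.2% ± 16.6 (SD, n = 3 each, exact permutation p = 1). In WT females it was 33.6%, 50% and 8.39%, and in THY-Tau22 females 18.9%, 0%, 10.3%, 0% and 46.1%, with means of 30.7% ± 21.0 (n = 3) and 15.1% ± 19.1 (n = 5, exact permutation p = 0.357). Over all members 22 cells had a class II UMI unthinned and 18.5 were expected after thinning. Groups overlapped in both sexes.

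**Figure D3:**
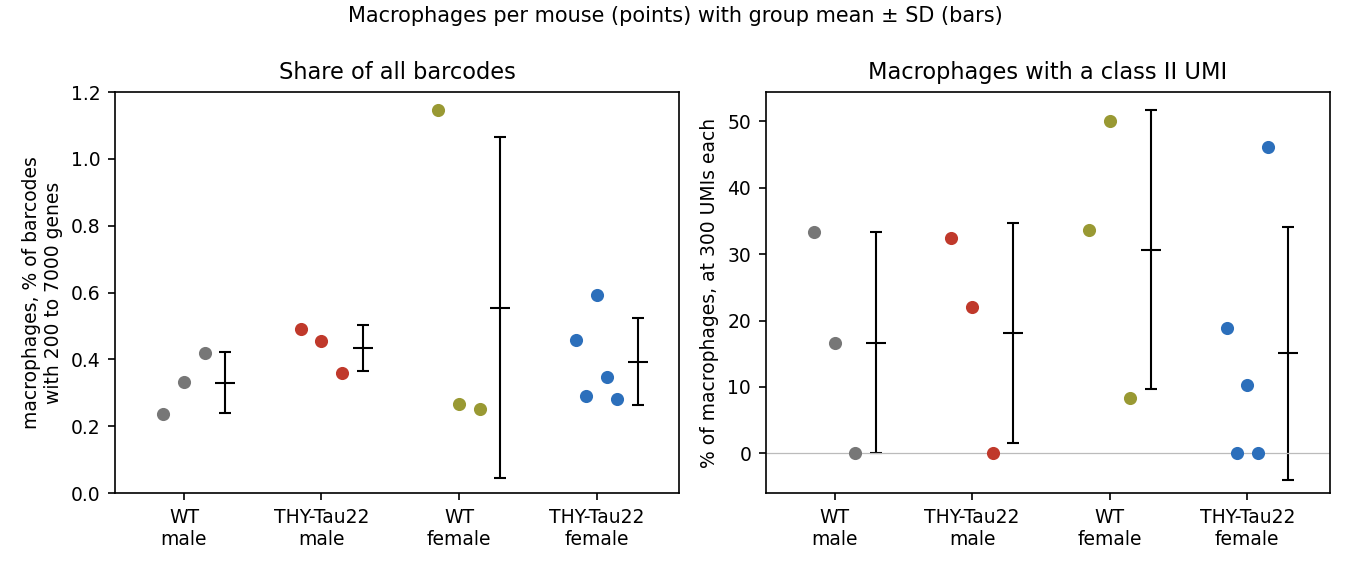
Macrophages as a percent of barcodes (left) and the percent of macrophages with an MHC class II UMI at 300 UMIs each (right), per mouse (points) with the mean and SD of each group (bars). On the left WT female 1 stands apart at 1.15%, and on the right every group spans a wide range, from 0% in 3 of the 4 groups.

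Genotype was then tested gene by gene on UMIs summed per mouse, in the 12 mice with at least 5 members (in males 3 WT and 3 THY-Tau22, in females 2 WT and 4 THY-Tau22). The low-count filter left 46 genes outside the rule, and edgeR's quasi-likelihood test called none of them (0% of the 46) in any contrast. To be called, a gene had to reach an adjusted p (Benjamini-Hochberg) below 0.05 with a log2 change of 0.5 or more in either direction. At an unadjusted p under 0.05 there were 4 genes in males, 2 in females and 0 for both sexes together, for the interaction and for sex. DESeq2 also called 0 genes, with 4, 1, 2, 0 and 1 genes at an unadjusted p under 0.05 in the same order. The standard error of a log2 fold change was 0.41 to 1.37 in males, with a median of 0.64, which limits what these tests can resolve. It was derived as the absolute log2 fold change divided by the square root of edgeR's F statistic. The ± beside an edgeR log2 value is this standard error. The coefficient of variation between mice, which edgeR estimates beyond counting error, was 0.521.

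Apoe is given in every mouse, as the transcript outside the rule that lay furthest from microglia. In WT males it was 69.5, 116 and 64.8 UMIs per 10000, and in THY-Tau22 males 185, 275 and 246. The 2 groups of males did not overlap, with means of 83.4 ± 28.3 and 235 ± 46.3 (SD, n = 3 each). In WT females it was 252, 323 and 93.5, and in THY-Tau22 females 160, 115, 137, 313 and 142, which overlapped. In edgeR the log2 difference was 0.95 ± 0.43 in males (unadjusted p = 0.0433, adjusted p = 0.525) and 0.17 ± 0.45 in females (adjusted p = 0.914), and the difference between the sexes, 0.78 ± 0.61, did not pass (adjusted p = 0.637). The same males did not overlap in Apoe outside the macrophages either: microglia had 2.17 to 3.53 in WT and 5.29 to 17.9 in THY-Tau22 males, and the remaining barcodes 13.5 to 16.2 and 24.1 to 43.5. The male genotype effect on Apoe in macrophages minus that in microglia was -0.70 ± 0.58 (adjusted p = 0.909). The levels are shares of all member UMIs, while edgeR also scales each mouse by TMM factors. Overlap of levels and the edgeR tests therefore rest on different scales. In males edgeR's log2 difference was lower than that of the mean levels for Apoe, Lyz2, Ccl7, Fth1 and Malat1. How much of this comes from the scaling was not tested.

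Lyz2, Ccl7 and Fth1 had the same order in males. Lyz2 was at 25.7, 53.3 and 28.8 in WT males and at 64.5, 76.3 and 64.4 in THY-Tau22 males. The means were 35.9 and 68.4, and after its own scaling edgeR gave 0.42 ± 0.46 on the log2 scale (adjusted p = 0.722). Microglia had 0.800 to 1.61 in WT and 3.07 to 4.86 in THY-Tau22 males. Ccl7 was at 18.0, 21.9 and 7.20 against 37.6, 30.1 and 64.4, and edgeR gave 0.87 ± 0.58 on the log2 scale (adjusted p = 0.663). Microglia had 0 in WT males and 0 to 0.116 in THY-Tau22 males. Fth1 was at 30.9, 40.7 and 21.6 against 62.7, 55.5 and 72.8, and edgeR gave 0.46 ± 0.71 on the log2 scale (adjusted p = 0.745). In females Lyz2 was at 60.2, 51.6 and 20.8 in WT and at 36.1, 26.1, 16.3, 54.9 and 31.3 in THY-Tau22 mice, which overlapped.

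**Figure D4:**
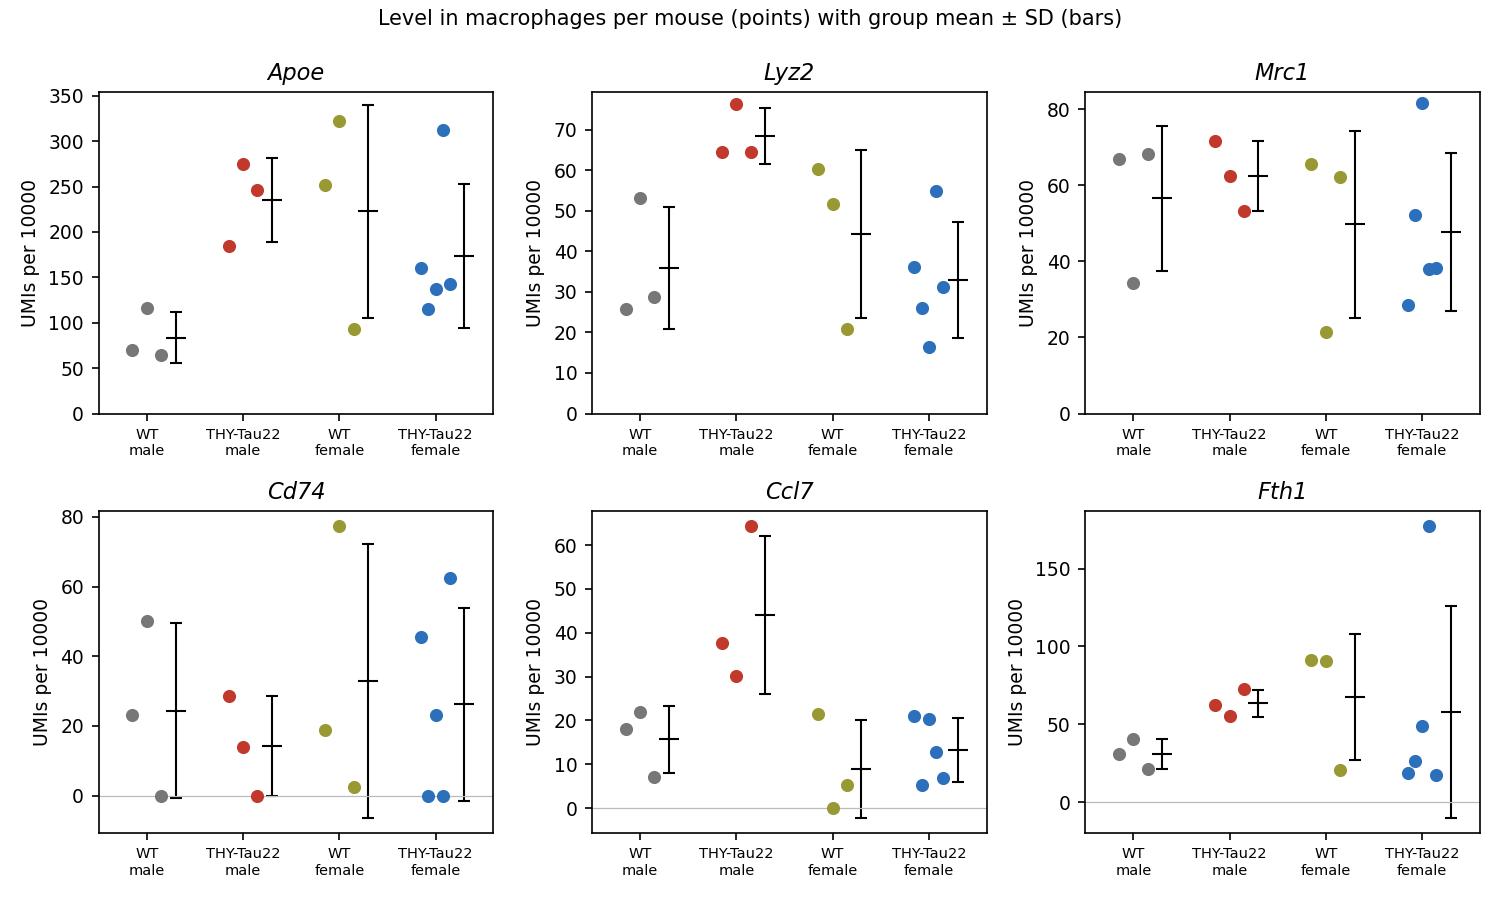
UMIs per 10000 of 6 genes in the macrophages of each of 14 mice (points), with the mean and SD of each group (bars); the lower panels start below 0 to show the bars. In males Apoe, Lyz2, Ccl7 and Fth1 do not overlap between WT and THY-Tau22 mice, whereas Mrc1 and Cd74 do, and in females all 6 overlap.

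The level per 10000 did not overlap between WT and THY-Tau22 males in 12 of the 46 genes (26.1%), which were Apoe, C1qa, Ccl12, Ccl7, Fth1, Itm2b, Lyz2, Malat1, Nfkbiz, Rplp1, mt-Nd5 and mt-Rnr1, and in 0 of the 46 (0%) in females. In 11 of the 12, all but Ccl7, the microglia of the same mice did not overlap either, against 29 of all 46 genes (63%). The remaining barcodes, neither members nor microglia, did not overlap in these 11 genes either. There Lyz2 was at 0.292 to 0.678 in WT males and 0.905 to 2.71 in THY-Tau22 males, and C1qa at 1.49 to 2.21 and 2.38 to 4.86. Malat1, a nuclear long noncoding RNA, moved with them: it was at 498 to 802 in WT males and 269 to 491 in THY-Tau22 males, and in microglia at 434 to 524 and 201 to 319.5. The summed mitochondrial mRNAs of the members were at 18.0 to 28.8 in WT and 62.7 to 86.8 in THY-Tau22 males. The oligodendrocyte genes in the members summed to 14.4 to 134 in WT males and 4.62 to 89.6 in THY-Tau22 males. What the values in this paragraph contribute to the macrophage differences was not tested.

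The gene groups were read from the same fit. In males the median log2 fold change over the 46 genes was -0.14, with 22 higher and 24 lower, and in females it was 0.14, with 25 higher and 21 lower. The scaling factors come from the genes that passed the filter and hold such a median near 0, so the split gives no common direction. The list medians below carry the same scaling. None of the members of any list passed. Of the class II list 2 genes were tested: Cd74 had -1.22 ± 1.18 in males and 1.75 ± 1.30 in females, and H2-Ab1 had -1.90 ± 1.37 and 1.69 ± 1.55. Of 24 border macrophage genes 3 were tested (Dab2, Lyz2 and Maf), with a median of 0.42 in males and -0.20 in females. The 4 tested chemokine and cytokine genes (Ccl12, Ccl7, Cxcl2 and Il1b) had a median of 0.73 in males and -0.12 in females, and the 3 C1q genes 0.51 and -0.47. The 6 tested immediate early genes had -0.35 and -0.01. The 2 tested lysosomal genes, Ctsb and Ctss, had -0.24 and 0.57.

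The genes with the smallest unadjusted p in each contrast are named, though none passed. In males they were Malat1 (-1.38 ± 0.57), Atf3 (-1.30 ± 0.56), Apoe (0.95 ± 0.43), mt-Rnr2 (-1.24 ± 0.57) and Egr1 (-1.64 ± 0.82), with a smallest adjusted p of 0.525 in edgeR. In females they included Klf6 (-1.49 ± 0.62), H3f3b (1.20 ± 0.59), Mt1 (1.73 ± 0.94) and Dab2 (-1.23 ± 0.82), with 0.914 in edgeR. The fit holds 2 WT females, and leaving out 1 leaves a lone mouse that is assumed to vary like the other groups. Without WT female 1 the values were -2.14 for Klf6, 2.82 for H3f3b and 6.41 for Mt1, and without WT female 3 they were -0.21, 0.50 and 0.87. In males Atf3 was at -0.49 without WT male 4. By mean levels, which lack edgeR's scaling, Malat1, Atf3, mt-Rnr2 and Egr1 were also lower in THY-Tau22 males, but by less. Klf6 and Atf3 are transcription factors of the early stress response, and H3f3b encodes a replication-independent histone. Averaged over both sexes they included mt-Rnr2, Malat1, Klf6 and Apoe, which had 0.56 ± 0.31, with a smallest adjusted p of 0.689 in edgeR.

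The interaction of sex and genotype, male minus female log2 fold change, asked whether the response to the transgene is sex-specific. The leading genes were Atf3, Egr1, H2-Ab1 (-3.59 ± 2.07), H3f3b and Cd74 (-2.97 ± 1.76), with a smallest adjusted p of 0.637 in edgeR. Of the 7 members with at least 20 class II UMIs, those in the fit came from WT males 1 and 2, THY-Tau22 male 1 and THY-Tau22 females 1, 3 and 5, and none from a WT female. Female minus male levels averaged over genotypes were led by Ccl7 (-0.82 ± 0.43), Gm42418, Actb, H3f3b and Ccl12 (-1.18), with a smallest adjusted p of 0.918.

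**Figure D5:**
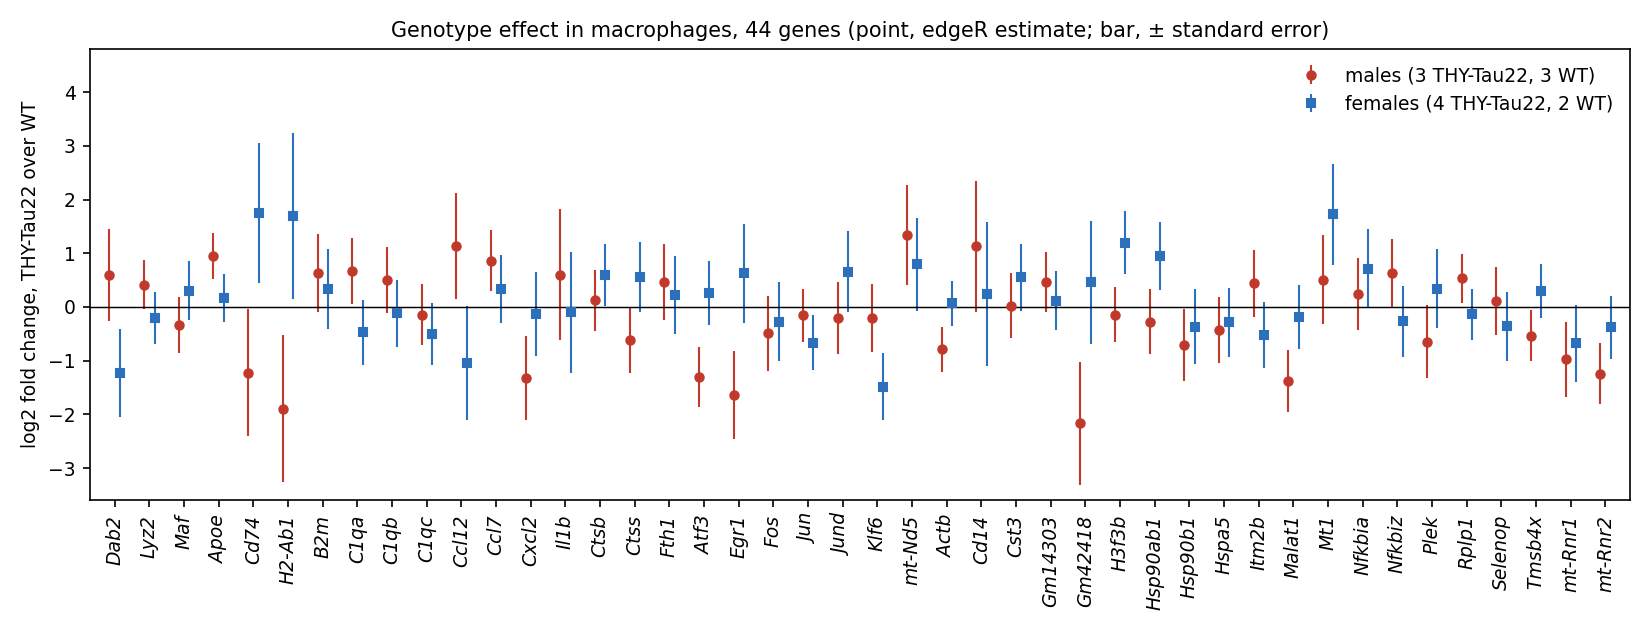
Log2 fold change of THY-Tau22 over WT mice in macrophages for 44 of the 46 genes tested, from edgeR, in males (red circles) and females (blue squares). Bars are the standard error derived from edgeR's F statistic. The bar reaches 0 for 26 genes in males and 35 in females, and those of Cd74 and H2-Ab1 are among the widest and point to opposite sides in the 2 sexes.

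The genotype effect in macrophages was also set against that in the microglia of the same mice. In males the leading genes were Cd74 (-4.52 ± 1.63), Cxcl2 (-2.95 ± 1.22), Actb (-1.05), H2-Ab1 (-4.79 ± 2.07) and Lyz2 (-1.07 ± 0.53), and edgeR's smallest adjusted p was 0.420. For Cd74 this difference is carried by the microglia as well: they had 0.0667 to 0.252 in WT males and 0.929 to 10.9 in THY-Tau22 males, while the macrophages of both groups overlapped. With no filter on low counts, 7780 genes were tested and 4 were called, all lower: Cd74, H2-Aa, H2-Ab1 and H2-Eb1. Of these H2-Eb1 alone was called without WT male 2, the mouse with the cell of 43 class II UMIs. In females the leading genes included H3f3b (1.23), C1qc (-1.05), Klf6 (-1.08) and Ccl12 (-2.01), and edgeR's smallest adjusted p was 0.735.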

How the data were processed

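Whole cortical cells of 16 mice were profiled by Drop-seq and sequenced on an Illumina NextSeq. The authors deposited UMI counts per gene and cell barcode, without normalization, in tables of 3000 barcodes and 30389 genes. The submitters' processing notes name the build mm10, and the aligner, annotation and pipeline version are not given in the sources used here. How reads shared by paralogs or overlapping genes were counted is unknown, so such genes are uncertain. The members and gene lists were chosen with earlier results of these data known. No doublet caller was run, and a stricter rule (0 UMIs of other lineages) was an alternative.

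UMIs were summed per mouse. For mice with at least 5 members, edgeR 4.0.16 (R 4.3.3) was run on these sums (TMM, filterByExpr, a mean per group, quasi-likelihood test, Benjamini-Hochberg adjustment over all genes tested). DESeq2 1.42.0 was an alternative. The code was tested on simulated data. p-values measure the spread between these samples, since the labels do not describe the mice further. Shares were compared by exact two-sided permutation over mice (Python 3.11.15, scipy 1.17.1). The class II share is the expected share over all ways of thinning each cell to 300 UMIs. A level is UMIs per 10000 and log2 levels add a pseudocount of 1. Intervals cover counting error only. The replicate numbers follow accession order and pair no mice.

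Named genes were those of the rule, the given markers, all class II genes, the 4 highest of each list, the 15 furthest from microglia among genes in at least 30 members, and the 5 smallest p per contrast. Genes lower than in microglia, genes at 0, and Cd163, Stab1, Msr1, Cd36, Colec12, Scarb1, Cd209f, Ccl2, Ccl4, Ccl8, Ccl24, Il1a, Clec7a, Igf1, Pdgfb, Ifitm3, Ctsd and the subset genes were added after their values were seen. Some genes that this rule names are not reported here.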

Additional observations from a re-analysis of the deposited data

Results flagged for a closer look

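The group of 5 THY-Tau22 females was checked in 21 sets of values. These were gene levels in the members, rule genes included, the shares of barcodes, the class II share and the median UMIs. In 2 sets a mouse's distance to its nearest neighbour exceeded Dixon's 95% limit (0.71 of the range for 5 mice), and chance passes about 1 in 20. Apoe was at 313 UMIs per 10000 in the members of THY-Tau22 female 4, against 115 to 160 in the other mice of the group, a gap of 0.773 of the range. Fth1 was at 178 in the same mouse, against 17.4 to 48.9 in the others, a gap of 0.803 of the range. This mouse had 5 members.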

How the results depend on the processing

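Of 166 counts of called genes under the alternatives, 163 were 0, over 31 to 108 tested genes wherever a low-count filter was kept. Without the filter the male genotype effect in macrophages minus that in microglia had 4 calls of 7780 genes, Cd74 (-4.06), H2-Aa (-7.70), H2-Ab1 (-4.38) and H2-Eb1 (-8.63), and 1 call of 7630 genes without WT male 2, H2-Eb1 (-9.58), an alternative chosen after seeing the data. With 2 macrophage genes required, the interaction had 2 calls of 78 genes, Gm42418 (-6.43) and Malat1 (-2.72). That setting leaves 9 mice with 1 WT female, assumed to vary like the other groups. Of 813 values of named genes, 803 kept their direction and side of the threshold and 8 reversed. With 2 macrophage genes required these were Klf6 in females (0.26), mt-Rnr2 (0.0259), Malat1 (0.10) and Klf6 (0.25) over both sexes, and Klf6 against microglia in females (0.29). The others were Lyz2 against microglia in males with 0 UMIs of other lineages (0.00812), Ccl12 against microglia in females (-2.85 to 6.79 leaving out each mouse, the highest without WT female 1, which leaves 1 WT female), and H3f3b in the interaction with no filter and without WT male 2 (0.23). The log2 fold change of Apoe in males stayed between 0.86 and 2.04, with an adjusted p of 0.129 to 0.961. Under RLE size factors, which also hold it near 0, the median log2 fold change over all genes was -0.03 in males.

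Leaving out each mouse in turn, the difference in the share of barcodes (THY-Tau22 minus WT, percentage points) was 0.0590 to 0.150 in males and -0.313 to 0.134 in females, and that in the share of macrophages and microglia was 0.432 to 1.03 and -2.19 to 0.655. The positive female values are those without WT female 1. The difference in the class II share was -6.83 to 10.6 in males and -26.7 to -5.94 in females, and that in median UMIs per member was 11.6 to 162 and -202.75 to -31. The female share of barcodes also turned to 0.0108 after thinning, and the class II share to 1.16 in females with 2 macrophage genes required. The male class II share turned to -4.82 with all 16 libraries, -5.28 with the shared library kept as WT, -2.36 with up to 1 microglial UMI and -9.73 at 500 UMIs a cell. The causes were not tested. A limit of 10 members a mouse was not run, as it left 2 mice. No paired analysis was possible because the replicate numbers follow accession order and come from no label. The 101 members limit every comparison.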
